A study of Rattus norvegicus with 9 samples.

Results

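The genes of the vascular endothelial growth factor (VEGF) system were followed in cultured neonatal rat cardiomyocytes infected with lentivirus to raise or lower the transcription factor TCF7L2. The 9 genes were taken by symbol from the per-library tables, which listed 14607 genes in all, and comprised 4 ligand genes (Vegfa, Vegfb, Vegfc and Pgf) and 5 receptor genes (Kdr, Flt1, Flt4, Nrp1 and Nrp2). They were selected on their expected counts and FPKM in the 3 groups of these same libraries. Kdr and Flt1 in particular were chosen by their levels after lenti-TCF7L2 beside those of Pecam1, the endothelial adhesion molecule used here as a reference for endothelial RNA. For these 3 genes the lenti-TCF7L2 values are therefore descriptions, with no test. Heart cells of newborn SD rats, 1 to 2 days old, were infected for 16 h and cultured for a further 48 h. There were 3 libraries each for lenti-NC (the lentiviral vector control), lenti-TCF7L2 (overexpression of wild-type TCF7L2) and lenti-shTCF7L2 (a short hairpin RNA against TCF7L2), all in serum-containing medium. All groups carried a lentivirus, and no uninfected culture was among the libraries. The labels do not say whether the replicates were separate isolations of cells, so the p-values measure the spread between these libraries, which may be technical.

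VEGF-A signals mainly through the receptor tyrosine kinase KDR (VEGFR2) on endothelial cells and drives the growth and permeability of blood vessels. FLT1 (VEGFR1) binds VEGF-A, VEGF-B and placental growth factor (PGF) and can hold VEGF-A away from KDR, whereas FLT4 (VEGFR3) binds VEGF-C and VEGF-D and is best known from lymphatic vessels. The neuropilins NRP1 and NRP2 are co-receptors shared with class 3 semaphorins. In the heart, cardiomyocytes make VEGF-A and VEGF-B, and endothelial cells carry most of the kinase receptors.

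TCF7L2 binds DNA directly, so the 250 bases before the annotated start are shown for the receptor genes on which the results turn: Kdr and Flt1, which are set against Pecam1, Flt4, which passed the test after lenti-TCF7L2, and Nrp2, which varied most between those libraries. The sequences are from RefSeq on build GRCr8, at chr14:32571813-32572062 for Kdr, chr12:12333180-12333429 for Flt1, chr10:34414584-34414833 for Flt4 and chr9:71617004-71617253 for Nrp2, all on the plus strand and written 5′ to 3′. Capitals mark exact matches on either strand to the core of the TCF/LEF site (CTTTGA) or to an ETS site (CCGGAA), a motif of factors active in endothelium. The motifs do not overlap.
Kdr: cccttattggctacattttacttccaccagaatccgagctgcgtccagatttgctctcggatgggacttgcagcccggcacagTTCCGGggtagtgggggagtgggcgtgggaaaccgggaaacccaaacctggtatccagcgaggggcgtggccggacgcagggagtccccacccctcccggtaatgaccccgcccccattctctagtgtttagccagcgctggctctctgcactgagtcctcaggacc
Flt1: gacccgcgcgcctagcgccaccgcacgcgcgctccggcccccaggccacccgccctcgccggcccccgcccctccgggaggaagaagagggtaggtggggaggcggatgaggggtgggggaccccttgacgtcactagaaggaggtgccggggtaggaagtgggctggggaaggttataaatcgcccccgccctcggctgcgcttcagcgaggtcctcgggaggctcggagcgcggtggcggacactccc
Flt4: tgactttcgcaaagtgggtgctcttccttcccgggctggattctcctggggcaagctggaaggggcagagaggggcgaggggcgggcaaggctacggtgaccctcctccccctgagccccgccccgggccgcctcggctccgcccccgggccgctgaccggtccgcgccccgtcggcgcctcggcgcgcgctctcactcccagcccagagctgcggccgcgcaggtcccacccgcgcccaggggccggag
Nrp2: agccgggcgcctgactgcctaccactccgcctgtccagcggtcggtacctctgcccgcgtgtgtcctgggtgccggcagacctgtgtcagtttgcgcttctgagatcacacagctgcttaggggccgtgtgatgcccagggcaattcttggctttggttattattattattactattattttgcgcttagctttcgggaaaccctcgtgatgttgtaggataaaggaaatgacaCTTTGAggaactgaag
Nrp2 held 1 TCF/LEF match, which began 16 bases before the start. Kdr held 1 ETS match, which began 167 bases before the start. Promoter windows were found for 10 of 11 genes looked for (the 9 genes, Figf and Pecam1), 11 windows in all, and no other window among them held either motif. Of 33469 rat promoter windows of the same length, 13.9% held the TCF/LEF core and 12.6% the ETS site. A match describes letters in a window and was not tested as a binding site.

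Each library held 15085922 to 16478295 expected counts (read fragments assigned to genes by a model), and all 9 genes passed the filter on low counts, as did 11761 genes in all. Tcf7l2 itself lay at 40.0, 36.4 and 34.1 CPM (counts scaled to a common library size) in the lenti-NC libraries, at 142, 206 and 85.7 CPM after lenti-TCF7L2 and at 25.6, 30.3 and 25.9 CPM after lenti-shTCF7L2. The groups did not overlap, but in the fit over all libraries only the rise passed (adjusted p = 0.000846 by edgeR's quasi-likelihood test, against 0.511 for the hairpin). Whether the counts include RNA of the introduced gene is not known. The third lenti-TCF7L2 library stood apart, with long genes counted low: a smooth trend of log2 level on gene length placed genes as long as Kdr and Flt1 at -0.52 and -0.59 relative to the mean of the 9 libraries, so results that rest on it are also given without it. Cardiomyocyte markers summed to 46742 to 48992 CPM in lenti-NC, with Myh6, the alpha myosin heavy chain, at 11204 CPM. Fibroblast markers summed to 52253 to 53765 CPM, so the cultures were mixed.

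Measured as FPKM (fragment counts divided by gene length and library size), which allows levels of different genes to be compared, Vegfa was the most abundant gene of the family in lenti-NC, at 278 ± 33 FPKM (SD, n = 3). Nrp2 came next at 76.3 ± 2.7 FPKM and Vegfb at 57.6 ± 1.7 FPKM. Figf, the files' symbol for the VEGF-D gene, which is not among the 9, lay at 35.2 ± 5.7 FPKM and did not separate from Nrp1 at 35.0 ± 0.2 FPKM. These were followed by Vegfc at 27.8 ± 2.5 FPKM, Flt4 at 20.2 ± 1.3 FPKM, Flt1 at 17.7 ± 0.5 FPKM, Pgf at 13.7 ± 0.8 FPKM and Kdr at 8.03 ± 1.19 FPKM. Apart from Figf and Nrp1, neighbours in this order did not overlap between libraries. The level of Kdr, the main signalling receptor, was the lowest of the family and lay above that of Pecam1 at 2.42 ± 0.35 FPKM.

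**Figure D1:**
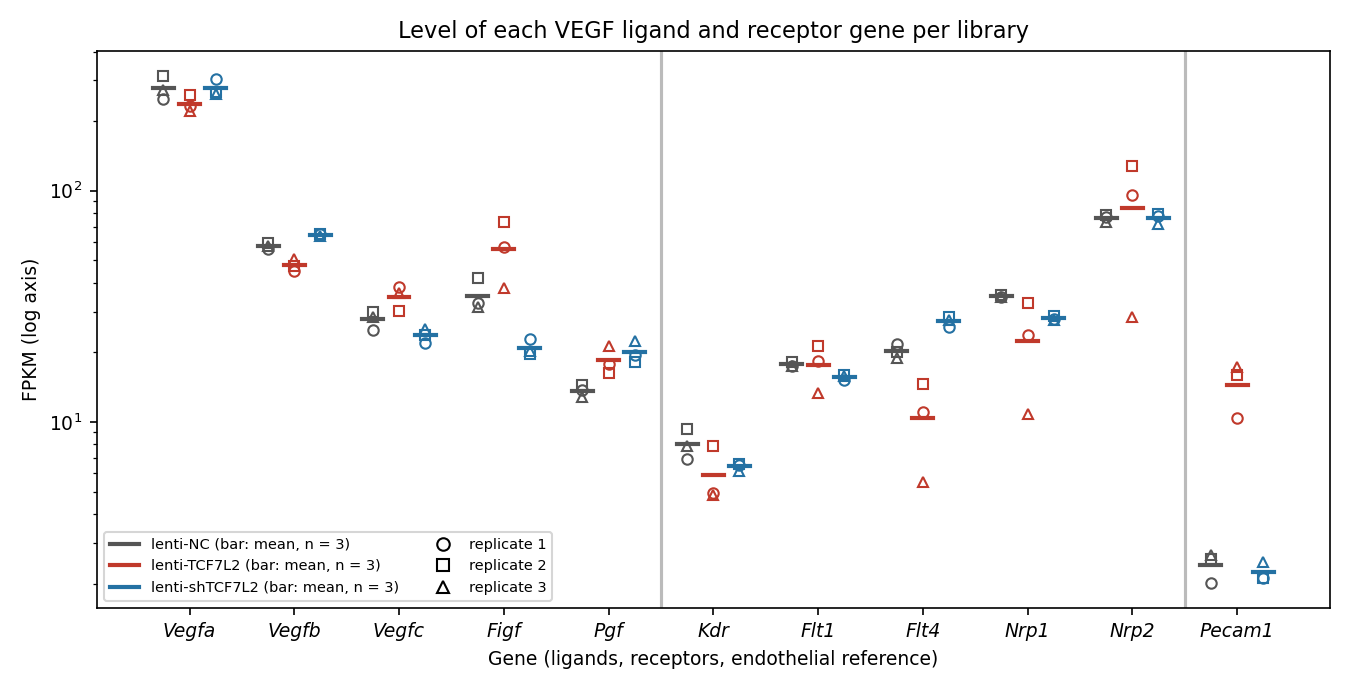
Level of each VEGF ligand and receptor gene and of Pecam1 in each of the 9 libraries, in FPKM on a log axis; symbols mark replicates and bars the group means (n = 3). Vegfa is highest throughout, Pecam1 averages 2.42 FPKM in lenti-NC and 14.5 FPKM after lenti-TCF7L2, and Nrp2 spreads from 28.4 to 128 FPKM in that group.

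After lenti-TCF7L2, 3 of the 7 genes not singled out changed against lenti-NC: Flt4 and Vegfb fell and Pgf rose, in edgeR's quasi-likelihood test with Benjamini-Hochberg adjustment over all genes at a threshold of 0.05. Over all genes tested, 18.0% rose and 13.8% fell. In CPM the groups did not overlap for 5 of the 7, beside 46.8% of all genes. The median log2 difference of the 9 genes was -0.32, against 0.03 for all genes tested.

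Flt4, the receptor for VEGF-C and VEGF-D, had the largest difference of the 9 genes. It lay at 97.1, 90.5 and 85.3 CPM in lenti-NC and at 47.9, 63.3 and 23.9 CPM after lenti-TCF7L2. All lenti-TCF7L2 libraries were below all controls, the third furthest. Flt4 fell by 1.01 on the log2 scale (SE 0.28, adjusted p = 0.0224), and without the third lenti-TCF7L2 library by 0.73 (SE 0.10, adjusted p = 5.38e-05). The fall no longer passed when any 1 lenti-NC library or the first lenti-TCF7L2 library was left out, or in a fit of only the 6 libraries compared (adjusted p up to 0.0709).

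The neuropilins spread widely after lenti-TCF7L2. Nrp1 lay at 138, 140 and 139 CPM in lenti-NC and at 91.1, 125 and 41.7 CPM after lenti-TCF7L2. Every lenti-TCF7L2 library was lower than every control, but the difference of -0.70 (SE 0.30) did not pass (adjusted p = 0.110). Without the third lenti-TCF7L2 library it was -0.38 (SE 0.10) and passed (adjusted p = 0.00557), as it did without the second (-1.08, adjusted p = 0.0104).

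Nrp2 lay at 264, 270 and 252 CPM in lenti-NC and at 317, 422 and 94.5 CPM after lenti-TCF7L2. The first and second lenti-TCF7L2 libraries were above all controls and the third was below them all. The difference over all libraries was 0.09 (SE 0.41, adjusted p = 0.889), and it turned to -0.36 without the second of these libraries. Without the third it was 0.48 (SE 0.09, adjusted p = 0.000945), so the direction of Nrp2 rested on single libraries. Within a library, the ratio of Nrp2 to Nrp1 in FPKM was 2.18 ± 0.07 in lenti-NC, 3.52 ± 0.78 after lenti-TCF7L2 and 2.72 ± 0.10 after lenti-shTCF7L2 (SD, n = 3). No lenti-TCF7L2 library, at 4.04, 3.91 and 2.63, fell within the lenti-NC range of 2.10 to 2.23. The lenti-shTCF7L2 libraries, at 2.79, 2.76 and 2.60, also lay above that range, so a higher ratio was not particular to lenti-TCF7L2.

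Among the ligands, Vegfb, which is strongly expressed in heart muscle, had the steadiest change. It lay at 103, 109 and 107 CPM in lenti-NC and at 80.0, 84.4 and 90.6 CPM after lenti-TCF7L2. The groups did not overlap, and Vegfb fell by 0.32 on the log2 scale (SE 0.07, adjusted p = 0.00674). This call held in all 21 alternative settings, with adjusted p up to 0.0370.

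Vegfa, the dominant ligand, lay at 832, 1054 and 916 CPM in lenti-NC and at 735, 829 and 647 CPM after lenti-TCF7L2. In CPM the highest lenti-TCF7L2 library was just under the lowest control, whereas in FPKM the groups overlapped (up to 260 FPKM after lenti-TCF7L2, from 248 FPKM in lenti-NC). The difference of -0.34 (SE 0.12) did not pass (adjusted p = 0.0560), but it passed in 6 of the 21 alternative settings, and its adjusted p ranged from 0.0154 to 0.193. As a share of the summed FPKM of the 5 ligand genes including Figf, Vegfa made up 67.4% ± 1.1 in lenti-NC, 60.2% ± 0.7 after lenti-TCF7L2 and 68.2% ± 1.8 after lenti-shTCF7L2 (SD, n = 3). The length assigned to Vegfa, which has several transcripts, varied from 2948 to 3272 bases between libraries, so its FPKM and CPM do not move strictly together.

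Pgf, a ligand of FLT1, lay at 22.0, 23.2 and 20.7 CPM in lenti-NC and at 27.7, 25.2 and 33.4 CPM after lenti-TCF7L2. All lenti-TCF7L2 libraries were above the controls, the third most, and Pgf rose by 0.39 on the log2 scale (SE 0.13, adjusted p = 0.0451). This call was close to the threshold and held in 6 of 21 alternative settings; without the third lenti-TCF7L2 library the difference was 0.25 (adjusted p = 0.0679). Vegfc, a ligand of FLT4, lay at 40.4, 48.4 and 46.2 CPM in lenti-NC and at 59.8, 47.2 and 56.5 CPM after lenti-TCF7L2. The groups overlapped through the second lenti-TCF7L2 library, and the difference of 0.28 (SE 0.11) did not pass (adjusted p = 0.0890). Figf, the other ligand of FLT4, lay at 49.2, 63.1 and 47.4 CPM in lenti-NC and at 83.2, 107 and 55.6 CPM after lenti-TCF7L2, with a difference of 0.62 (SE 0.21) that did not pass (adjusted p = 0.0542). Without the third library it was 0.81 (SE 0.12) and passed (adjusted p = 0.000126).

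Without the third lenti-TCF7L2 library, 5 of the 7 genes passed: Nrp2 rose and Flt4, Nrp1, Vegfa and Vegfb fell. In that fit 21.2% of all genes rose and 21.5% fell.

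**Figure D2:**
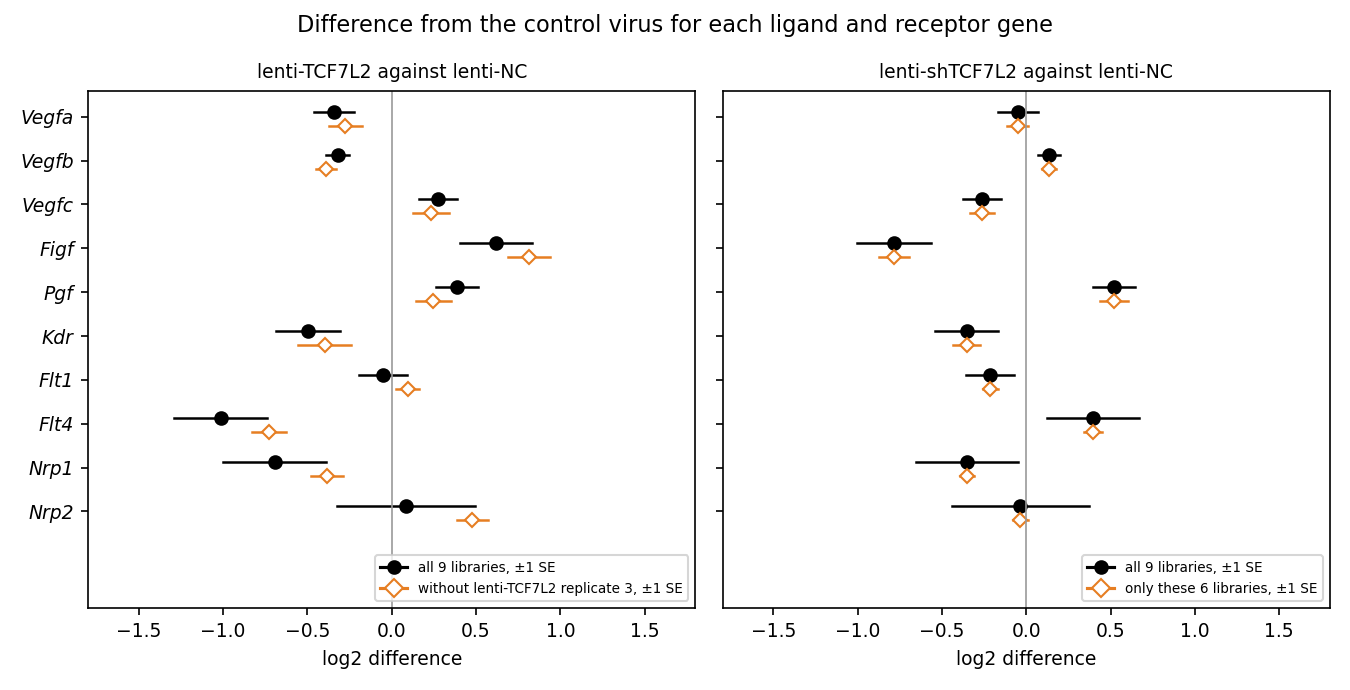
Log2 difference from lenti-NC for the 9 genes and Figf after lenti-TCF7L2 (left) and lenti-shTCF7L2 (right). Filled points are the fit over all 9 libraries; open diamonds are the fit without the third lenti-TCF7L2 library (left) or of only the 6 libraries compared (right). Bars are 1 SE either side. Vegfb and Flt4 lie below 0 after lenti-TCF7L2 in both fits, and the SE of Flt4 after lenti-shTCF7L2 is 0.27 over all libraries and 0.05 in the fit of 6.

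Kdr and Flt1 did not follow Pecam1 and most other endothelial markers upward after lenti-TCF7L2. Pecam1 lay at 6.73, 8.56 and 8.89 CPM in lenti-NC and at 33.5, 51.1 and 55.6 CPM after lenti-TCF7L2, a log2 difference of 2.54 (SE 0.20). Kdr lay at 42.2, 56.7 and 47.8 CPM in lenti-NC and at 28.9, 46.3 and 28.6 CPM after lenti-TCF7L2. Its groups overlapped through the second lenti-TCF7L2 library, and the difference was -0.50 (SE 0.19). The Kdr difference was -0.40 (SE 0.16) without the third lenti-TCF7L2 library and -0.77 without the second. With the length trend removed it was -0.25 (SE 0.14). Flt1 lay at 119, 124 and 119 CPM in lenti-NC and at 120, 141 and 88.3 CPM after lenti-TCF7L2. These libraries fell on both sides of the controls, and the difference was -0.05 (SE 0.14), turning to 0.10 (SE 0.07) without the third lenti-TCF7L2 library and to 0.24 (SE 0.05) with the length trend removed.

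Of 19 other endothelial markers tested, leaving out Pecam1, 17 rose after lenti-TCF7L2 and 1 (S1pr1, a sphingosine-phosphate receptor) fell. Over all genes tested, 18.0% rose and 13.8% fell. The median log2 difference of the 19 was 1.64. Cldn5, 1 of the 19, was near the floor outside lenti-TCF7L2, at 0.380 CPM on average in lenti-NC and 0.506 CPM after lenti-shTCF7L2, beside 4.53 CPM. The difference of Kdr and that of Flt1 were each below those of 18 of the 19 markers. Both genes were chosen by these same values, so this rank is a description and gives no separate evidence. Beside Pecam1 the defining markers of that list were Cdh5 (VE-cadherin), with a difference of 1.97 (adjusted p = 0.00400), Tie1, with 2.17 (adjusted p = 9.98e-05), and Tek, with 0.53 (adjusted p = 0.0162). The list was drawn up with earlier results of these data known, so these p-values give no separate evidence of an endothelial rise. The summed endothelial markers (24 looked for, 21 listed) came to 662 to 688 CPM in lenti-NC, 983 to 1109 CPM after lenti-TCF7L2 and 556 to 563 CPM after lenti-shTCF7L2; Eng, the TGF-beta co-receptor endoglin, alone made up 450 CPM on average in lenti-NC. In these bulk samples, more or fewer cells of a type and more or less RNA per cell cannot be told apart.

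The ratio of Kdr to Pecam1 in FPKM was 3.44, 3.63 and 2.94 in the lenti-NC libraries and 0.473, 0.496 and 0.282 after lenti-TCF7L2. It was 3.08, 3.12 and 2.47 after lenti-shTCF7L2. All lenti-TCF7L2 libraries were far below the other 6, and the mean log2 ratio differed from lenti-NC by -3.04, an 8.22-fold lower ratio. The ratio of Flt1 to Pecam1 was 8.63, 7.13 and 6.55 in lenti-NC and 1.76, 1.34 and 0.778 after lenti-TCF7L2. It was 7.14, 7.57 and 6.32 after lenti-shTCF7L2. The mean log2 ratio after lenti-TCF7L2 differed by -2.59, a 6.03-fold lower ratio. With the mean of Cdh5, Tie1, Emcn and Esam as the reference, the ratios were 6.42-fold lower for Kdr and 4.71-fold lower for Flt1. Pecam1 was chosen with its rise known, so these ratios restate the choice of reference. The same limit holds for Cdh5, Tie1, Emcn and Esam, which all lay above the lenti-NC mean in every lenti-TCF7L2 library. Tek, Eng and Clec14a, which rose less, and S1pr1, which fell, were not part of that reference.

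The other receptor genes also lay below Pecam1's course. Against Pecam1, the mean log2 ratio after lenti-TCF7L2 differed from lenti-NC by -3.64 for Flt4, -3.35 for Nrp1 and -2.68 for Nrp2. Their own differences were -1.01, -0.70 and 0.09, beside 2.54 for Pecam1. The ratios thus mostly restate the rise of Pecam1, which was known when it was chosen. Flt1 exceeded Kdr in every library, with an FPKM ratio of 2.23 ± 0.27 in lenti-NC, 3.06 ± 0.57 after lenti-TCF7L2 and 2.43 ± 0.12 after lenti-shTCF7L2 (SD, n = 3). All lenti-TCF7L2 libraries had a higher Flt1 to Kdr ratio than any control, and so did the third lenti-shTCF7L2 library (2.56, beside 2.51 in the highest control). Both genes were chosen by their lenti-TCF7L2 levels, so this is a description.

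**Figure D3:**
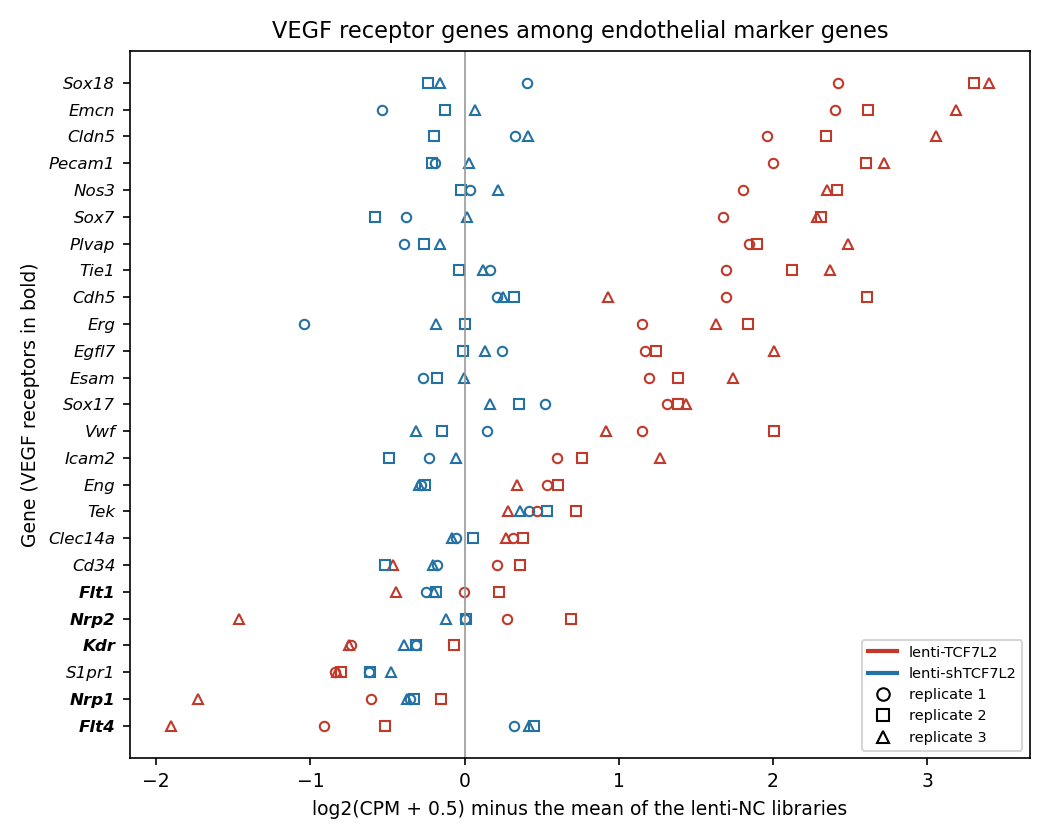
VEGF receptor genes (bold) among the endothelial markers tested, as log2(CPM + 0.5) minus the lenti-NC mean in each lenti-TCF7L2 and lenti-shTCF7L2 library. Of 20 markers other than the receptors, Pecam1 included, 18 lie above 0 in all 3 lenti-TCF7L2 libraries, while the receptor genes lie near or below 0 apart from Nrp2 in the first and second.

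The genes whose course over the 9 libraries was most like that of Kdr, by the root-mean-square difference of log2 CPM set to the lenti-NC mean among 8555 genes, were Zbtb43 (0.099), Abcb1b (0.146) and Rmnd1 (0.1504), whereas Pecam1 differed by 1.73. For Flt1 they were Rhobtb3 (0.041), Zfp46 (0.052) and Tacc1 (0.057), with Pecam1 at 1.49. For Vegfa they were Lhfpl2 (0.076), Nyap1 (0.078) and Kdm4c (0.080). Kdr and Flt1 were chosen by their levels beside Pecam1, so their distance from it restates that choice. The genes named are the nearest of all those compared, so their small distances follow from the ranking and were not tested.

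After lenti-shTCF7L2, 0 of the 9 genes passed in edgeR's fit over all 9 libraries, in which 1.32% of all genes rose and 2.32% fell. At an unadjusted p under 0.05, 1 gene (Pgf) was higher and 1 (Vegfc) lower, and DESeq2 called 1 (Pgf, higher). In a fit of only the 6 libraries compared, where the wide spread of the lenti-TCF7L2 libraries does not enter, 7 of 9 passed: Vegfb, Pgf and Flt4 rose and Vegfc, Kdr, Flt1 and Nrp1 fell. In that fit 13.0% of all genes rose and 15.5% fell. In CPM the groups did not overlap for 7 of the 9 genes, beside 40.9% of all genes; in FPKM those of Vegfc overlapped.

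Flt4 was higher in all hairpin libraries, at 114, 124 and 121 CPM beside 85.3 to 97.1 CPM in lenti-NC. The difference was 0.40 (SE 0.27, adjusted p = 0.575), and 0.40 (SE 0.05, adjusted p = 4.00e-06) in the fit of 6 libraries. Pgf was likewise higher in all of them, at 30.9, 28.5 and 35.2 CPM beside 20.7 to 23.2 CPM. Its difference was 0.52 (SE 0.13, adjusted p = 0.0630), and 0.52 (SE 0.08, adjusted p = 3.91e-05) in the fit of 6 libraries. Pgf thus lay above lenti-NC under both viruses.

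Nrp1 was lower in all hairpin libraries, at 109, 111 and 107 CPM beside 138 to 140 CPM in lenti-NC. Its difference was -0.35 (SE 0.30, adjusted p = 0.685; -0.35, adjusted p = 1.399e-06, in the fit of 6 libraries). Kdr lay at 38.9, 39.0 and 36.8 CPM, below all controls, with a difference of -0.35 (SE 0.19, adjusted p = 0.420; adjusted p = 0.00179 in the fit of 6). Flt1 lay at 101, 106 and 105 CPM, also below all controls, with a difference of -0.21 (SE 0.14, adjusted p = 0.557; adjusted p = 0.000839 in the fit of 6). Unlike after lenti-TCF7L2, Pecam1 overlapped the controls, at 6.93, 6.85 and 8.16 CPM (difference -0.14, SE 0.21, adjusted p = 0.861).

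The FLT4 ligands lay below lenti-NC after the hairpin. Vegfc was at 34.9, 37.6 and 40.2 CPM, with a difference of -0.26 (SE 0.11, adjusted p = 0.298; 0.00816 in the fit of 6). Figf was at 33.7, 28.8 and 30.2 CPM, below all controls, with a difference of -0.78 (SE 0.22, adjusted p = 0.0993; 5.77e-07 in the fit of 6). Vegfb lay slightly above lenti-NC, at 118, 117 and 115 CPM (difference 0.13, SE 0.07, adjusted p = 0.381; 0.0245 in the fit of 6). Vegfa, at 986, 864 and 855 CPM, and Nrp2, at 262, 264 and 241 CPM, overlapped lenti-NC, with differences of -0.05 (95% interval -0.32 to 0.22, adjusted p = 0.924) and -0.03 (95% interval -0.96 to 0.89, adjusted p = 0.989).

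Between lenti-TCF7L2 and lenti-shTCF7L2, 3 of the 7 genes not singled out differed: Vegfc was higher after lenti-TCF7L2 and Vegfb and Flt4 were lower. In this comparison 18.4% of all genes were higher and 14.7% lower. In CPM the groups did not overlap for 4 of the 7, beside 47.2% of all genes. Flt4 differed by -1.41 (SE 0.28, adjusted p = 0.00460), Vegfb by -0.46 (SE 0.07, adjusted p = 0.00100) and Vegfc by 0.54 (SE 0.11, adjusted p = 0.00627). Figf, outside the 9 genes, differed by 1.403 (SE 0.22, adjusted p = 0.00137). These calls of Flt4, Vegfb and Vegfc held in all 21 alternative settings. The 3 comparisons share libraries, so they are not independent of each other.

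Set within each library, the ligand Figf and its receptor Flt4 differed in opposite directions: the ratio of their FPKM was 1.51, 2.07 and 1.65 in lenti-NC. It was 5.16, 5.00 and 6.91 after lenti-TCF7L2 and 0.882, 0.690 and 0.740 after lenti-shTCF7L2. The 3 groups did not overlap in this ratio, which was computed after the values of both genes had been seen.

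**Figure D4:**
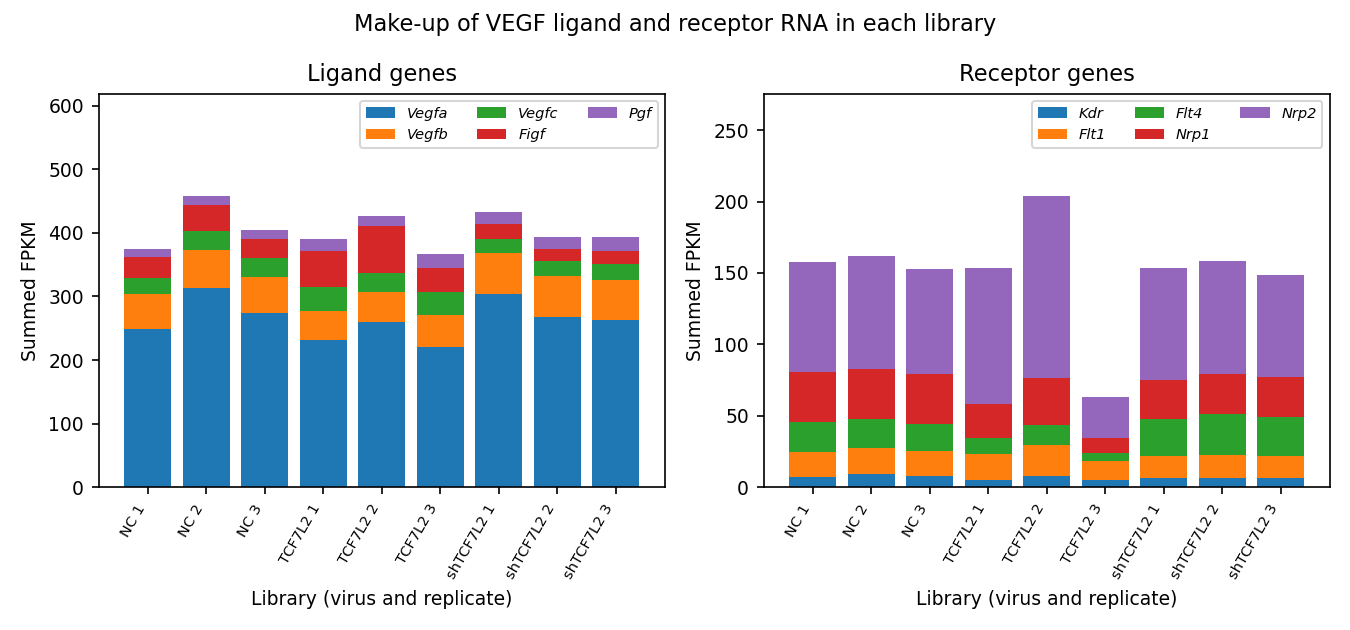
Summed FPKM of the 5 ligand genes including Figf (left) and the 5 receptor genes (right) in each library, stacked by gene from 0. The receptor sum was 153 to 162 in lenti-NC but 154, 204 and 63.0 in the lenti-TCF7L2 libraries, and Vegfa is the largest part of every ligand bar.

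Of 44 tested signalling genes of the VEGF receptors, 6 (13.6%) rose and 8 (18.2%) fell after lenti-TCF7L2, shares close to the 18.0% and 13.8% of all genes, with a median log2 difference of -0.05 beside 0.03 for all genes. Nos3, the endothelial nitric oxide synthase, was at 22.1 CPM on average after lenti-TCF7L2 beside 4.39 CPM in lenti-NC, and rose by 2.33 (SE 0.18, adjusted p = 7.64e-05). Rcan1, a calcineurin inhibitor, fell by 0.79 (SE 0.09, adjusted p = 0.000375) and Synj2bp, a mitochondrial outer membrane protein, by 0.51 (SE 0.06, adjusted p = 0.000454). After lenti-shTCF7L2 only Ptk2, the focal adhesion kinase gene, passed, rising by 0.41 (SE 0.07, adjusted p = 0.0179). In the fit of 6 libraries 6 rose and 11 fell, where 13.0% of all genes rose and 15.5% fell. The same shares of all genes stand beside the lists below.

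Genes listed as induced by VEGF in endothelium mostly rose after lenti-TCF7L2. Of 26 tested, with Flt1 and Pgf left out, 16 (61.5%) rose and 4 (15.4%) fell, beside 18.0% and 13.8% of all genes. Their median log2 difference was 0.65. Rcan1, which is also on this list, was among the 4 that fell, at 237 CPM on average after lenti-TCF7L2 beside 409 CPM in lenti-NC. Dll4, the Notch ligand of tip cells, lay at 10.2 CPM after lenti-TCF7L2 beside 0.873 CPM in lenti-NC and rose by 3.53 (SE 0.32, adjusted p = 0.000128). Nr4a1, an immediate early nuclear receptor, rose by 0.87 (SE 0.09, adjusted p = 0.000226) and F3, the coagulation initiator tissue factor, by 0.74 (SE 0.08, adjusted p = 0.000247). Summed endothelial markers moved with this list, as given above, and their part in it was not tested. After lenti-shTCF7L2, 2 of the list rose, Nr4a1 by 0.43 (adjusted p = 0.0326) and Plat, a plasminogen activator, by 0.51 (adjusted p = 0.00512). F3 fell by 0.51 (adjusted p = 0.00975), and Angpt2, described next, also fell. In the fit of 6 libraries 6 rose and 6 fell.

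The angiopoietin and TIE system, which stabilises or loosens vessels beside VEGF, had 5 tested genes, of which 3 rose after lenti-TCF7L2. Tie1 and Tek were given above, and Angpt2, a ligand that loosens vessels, rose by 1.22 (SE 0.17, adjusted p = 0.000938). After lenti-shTCF7L2 Angpt2 fell by 0.96 (SE 0.18, adjusted p = 0.0235), alone of the 5; in the fit of 6 libraries 1 of 4 tested rose and 2 fell. Of 9 tested semaphorin and plexin genes, which share the neuropilins, 3 (33.3%) rose and 2 (22.2%) fell after lenti-TCF7L2. Plxnd1, a plexin of endothelium, rose by 1.31 (SE 0.19, adjusted p = 0.00105), Sema3g by 1.65 (SE 0.37, adjusted p = 0.00953), and Sema3c fell by 0.73 (SE 0.15, adjusted p = 0.00646). Sema3f, an NRP2 ligand, rose after lenti-TCF7L2 (0.33, adjusted p = 0.0270) and fell by 0.49 after lenti-shTCF7L2 (adjusted p = 0.0262), where it was the only 1 of the 9 to pass; in the fit of 6 libraries 3 rose and 1 fell.

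Of 13 tested regulators of the oxygen response, which controls Vegfa, 2 (15.4%) rose and 3 (23.1%) fell after lenti-TCF7L2, beside 18.0% and 13.8% of all genes. Cited2, a negative regulator of HIF-1, rose by 0.45 (SE 0.06, adjusted p = 0.000843). Ppargc1a, a coactivator of mitochondrial genes that can also induce Vegfa, fell by 1.87 (SE 0.43, adjusted p = 0.0107). Egln3, a prolyl hydroxylase of HIF and itself a hypoxia target, fell by 0.90 (SE 0.09, adjusted p = 0.000212). After lenti-shTCF7L2, 0 of 13 passed in edgeR's fit over all libraries (2 at an unadjusted p under 0.05, 0 with DESeq2), and in the fit of 6 libraries 1 rose and 5 fell. Of 32 hypoxia target genes, 5 rose and 5 fell after lenti-TCF7L2 (15.6% each, also near the shares of all genes), and 5 rose and 12 fell without the third lenti-TCF7L2 library, where 21.2% and 21.5% of all genes did. Adm, which encodes the vasodilator adrenomedullin, rose by 0.80 (SE 0.10, adjusted p = 0.000554) and fell by 1.05 after lenti-shTCF7L2 (SE 0.10, adjusted p = 0.00165). Ddit4, a stress-induced inhibitor of mTOR, rose after lenti-TCF7L2 by 0.51 (SE 0.08, adjusted p = 0.00195). In the fit of 6 libraries 7 of the 32 rose and 5 fell after lenti-shTCF7L2, beside 1 fall (Adm) over all libraries.

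Other vascular growth factors and inhibitors numbered 21, of which 10 (47.6%) rose and 4 (19.0%) fell after lenti-TCF7L2, beside 18.0% and 13.8% of all genes. Pdgfb, which recruits pericytes, rose by 1.83 (SE 0.24, adjusted p = 0.000787) and Apln, the apelin gene, by 1.46 (SE 0.20, adjusted p = 0.000833). After lenti-shTCF7L2, Adm and Thbs2 fell, the latter, an inhibitor of vessel growth, by 1.12 (SE 0.16, adjusted p = 0.00836). In the fit of 6 libraries 2 of the 21 rose and 10 fell.

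Markers of other cells were measured in the same libraries. After lenti-TCF7L2, 10 of 11 cardiomyocyte markers fell and their sum was 20964 to 25841 CPM, with Myh6 falling by 1.45 (adjusted p = 2.41e-05); after lenti-shTCF7L2 the sum was 43346 to 45076 CPM and 0 of 11 passed in edgeR's fit over all libraries (1 at an unadjusted p under 0.05, 1 with DESeq2; 1 rose and 5 fell in the fit of 6). After lenti-TCF7L2 the cardiomyocyte sum and Vegfb lay below all controls. Vegfa did so in CPM but not in FPKM, and its difference did not pass. After lenti-shTCF7L2 the sum lay below and Vegfb above all controls. The part of the sum in the values of Vegfa and Vegfb was not tested. Of 4 lymphatic markers tested beside Flt4, 3 rose after lenti-TCF7L2, among them Lyve1, a hyaluronan receptor (2.53, adjusted p = 0.000403), and Pdpn, podoplanin (0.82, adjusted p = 0.000235). Prox1, a lymphatic transcription factor also made by cardiomyocytes, fell by 1.68 (adjusted p = 0.0341), from 27.2 to 8.53 CPM on average. Lymphatic markers summed to 202 to 221 CPM in lenti-NC, 323 to 379 CPM after lenti-TCF7L2 and 176 to 185 CPM after lenti-shTCF7L2, but Pdpn alone made up 182, 323 and 150 CPM of these on average. The markers did not follow Flt4 in 1 direction: Prox1 fell with it after lenti-TCF7L2 while the other 3 tested rose. After lenti-shTCF7L2 the only call was a rise of Reln, the reelin gene, by 1.73 (adjusted p = 0.00906), and in the fit of 6 libraries 1 rose and 2 fell. Endocardial markers summed to 51.9 to 59.4, 66.7 to 105 and 42.3 to 45.3 CPM in lenti-NC, lenti-TCF7L2 and lenti-shTCF7L2, with Cytl1 at 0 in lenti-NC and lenti-shTCF7L2. Of 4 tested, 1 rose after lenti-TCF7L2, and 3 of 4 rose without the third library. Plvap, 1 of the 4, is also on the endothelial list, and averaged 3.63, 17.2 and 2.92 CPM in the 3 groups. In the same order, macrophage and leukocyte markers summed to 46.6 to 48.3, 82.8 to 87.0 and 50.5 to 53.4 CPM, and 5 of 9 tested rose after lenti-TCF7L2. Fibroblast markers spanned 44898 to 63955 CPM after lenti-TCF7L2 and 51527 to 53873 CPM after lenti-shTCF7L2, with 4 of 10 rising and 1 falling after the former and 4 falling after the latter. Without the third lenti-TCF7L2 library 7 rose and 1 fell after lenti-TCF7L2, and in the fit of 6 libraries 1 rose and 8 fell after lenti-shTCF7L2. Smooth muscle and pericyte markers summed to 7771 to 7886, 7151 to 8237 and 7560 to 7726 CPM, with 2 of 10 rising after lenti-TCF7L2, and 4 rising and 2 falling without the third library. The part of these cells in the VEGF results was not tested.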

How the data were processed

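RNA-seq of 9 libraries of neonatal rat cardiomyocytes was used, 3 per group, with groups taken from the sample titles. RSEM 1.3.1, Bowtie2, HISAT2 and DESeq2 1.4.5 are named with build rn6, without roles, per the submitters' processing notes. Per the file headers, the authors deposited expected counts (estimated fragments per gene, not normalised) and FPKM per library, with gene lengths in bases. Genes missing from a library's table were set to 0.

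Expected counts were rounded, filtered with filterByExpr (11761 of 14607 genes kept), scaled by TMM and tested with edgeR 4.0.16 (quasi-likelihood, 2-sided, group only, all 9 libraries; R 4.3.3), with Benjamini-Hochberg adjustment over all genes tested and a threshold of 0.05. The biological coefficient of variation was 14.9%. CPM uses TMM-scaled library sizes. Each standard error is the log2 difference divided by the root of its F statistic. The fit was tested on simulated data that had the same spread in every group. The wider spread of the lenti-TCF7L2 libraries was therefore not covered by it.

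The genes, the 15 lists and the tests were chosen with earlier results of these data known. Named genes were the 9 genes and Pecam1; up to 3 genes per pathway list with the smallest adjusted p among those passing after lenti-TCF7L2; every pathway-list gene passing after lenti-shTCF7L2; the 3 nearest patterns (mean CPM at least 10); and the first markers of each list. S1pr1, Eng, Clec14a, Cd34 and Reln were named after their values were seen. Alternatives were RLE and upper-quartile scaling, other filters, DESeq2 1.42.0, limma 3.58.1 on log2(FPKM + 1) or log2(FPKM + 0.1), a replicate block, fits of 6 libraries, removal of a length trend (lowess, span 0.3) and leaving out each library. List counts without the third lenti-TCF7L2 library, or from 6 libraries, were added after seeing the data. Depth was 15085922 to 16478295 counts per library, and RefSeq promoter windows are of another build (GRCr8) than the files.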

Additional observations from a re-analysis of the deposited data

How the results depend on the processing

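Of the tested values for single genes over 21 alternative settings, 427 kept direction and side of the threshold, 20 no longer passed, 43 newly passed and 14 reversed. Of the values with no test (Kdr, Flt1 and Pecam1 after lenti-TCF7L2), 8 moved by more than 1 SD, 2 of these with a change of sign, and 4 others changed sign within it: Flt1 against lenti-NC was 0.24 and 0.23 with the length trend removed (with and without the third lenti-TCF7L2 library) and 0.10 without that library; Kdr against lenti-shTCF7L2 was 0.09 and 0.04 with the length trend removed; and Flt1 against lenti-shTCF7L2 was -0.0021 without the second. The number of genes changed after lenti-TCF7L2 (3 of 7) was 1 in a fit of only 6 libraries and 5 with the length trend removed and the third lenti-TCF7L2 library left out, and ranged from 1 to 6 when single libraries were left out; 1 was reached without any 1 lenti-NC library or the first lenti-TCF7L2 library, 6 without the second and 5 without the third. After lenti-shTCF7L2 (0 of 9) it was 1 with DESeq2, 1 with limma on log2(FPKM + 1) and 1 on log2(FPKM + 0.1), both filtered, 7 in the fit of 6 libraries, 2 with the length trend removed and 6 with that and the third lenti-TCF7L2 library left out, and ranged from 0 to 4 when single libraries were left out, with 1 without the second and 4 without the third lenti-TCF7L2 library. Between lenti-TCF7L2 and lenti-shTCF7L2 (3 of 7) it was 6 with the length trend removed and the third lenti-TCF7L2 library left out, and ranged from 3 to 5 when single libraries were left out, with 5 without the second. The log2 change of the Kdr to Pecam1 ratio was -2.68 with Cdh5, Tie1, Emcn and Esam as reference and -2.68 with the length trend removed and the third lenti-TCF7L2 library left out, and that of Flt1 was -2.14 in the latter.

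Nrp2 against lenti-NC after lenti-TCF7L2 reversed to -0.11 and -0.12 (limma, filtered, pseudocount 1 and 0.1) and -0.11 (unfiltered), and ranged from -0.36 to 0.48 when single libraries were left out. Against lenti-shTCF7L2 it reversed to -0.11, -0.11 and -0.11 in the same limma fits and ranged from -0.32 to 0.53. After lenti-shTCF7L2, Nrp2 ranged from -0.062 to 0.0064 and Vegfa from -0.13 to 0.045 when single libraries were left out. None of these Nrp2 and Vegfa reversals passed the test. The cause of these changes was not tested.

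In their deviations from the group means, same-numbered libraries correlated at -0.0674 to 0.1509, with 2 of 9 pairs over 0.1. Differently numbered libraries were not set beside them, so these values cannot show whether replicate numbers pair the libraries. With the replicate block, Nrp2 was -0.067 after lenti-TCF7L2 against lenti-NC and -0.028 against lenti-shTCF7L2, Pgf after lenti-TCF7L2 was 0.37 (adjusted p = 0.0584), and the counts of genes changed stayed within 1.5 times. Groups of 3 libraries and the spread of the lenti-TCF7L2 group limit what could be detected.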
